A study of Mus musculus with 9 samples.

Results

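The miRNAs described here come from a cluster of hairpins in the mouse Clcn5 gene on chromosome X, named for miR-532 and also holding miR-188, miR-362, miR-500 and miR-501. The rule listed 9 mature members, with miR-660-5p among them. Of the 9, 8 were among the 1101 mature miRNAs with counts in at least 1 library, and miR-660-5p was not. They are mmu-miR-532-3p, mmu-miR-532-5p, mmu-miR-188-5p, mmu-miR-362-5p, mmu-miR-362-3p, mmu-miR-500-3p, mmu-miR-501-3p, mmu-miR-501-5p and mmu-miR-660-5p, written without the species prefix from here on. The cluster was selected on the counts of miR-532-3p, which were 0 in every library of 24 h of silica, so that value and every other level at 24 h are given as a description, with no test. The members were counted in small RNA libraries of exosomes, the small vesicles that cells shed into their medium. All vesicles came from RAW264.7, an established mouse macrophage line, grown in DMEM with fetal bovine serum, which itself can carry vesicles and miRNAs. There were 3 libraries from untreated cells, 3 from cells kept with silica for 24 h and 3 from cells kept with silica for 48 h. How long the untreated cells were cultured is not stated in the labels, and the vesicles were of 1 cell line.

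A miRNA hairpin is cut from a longer transcript, and Dicer then releases a duplex of a 5p and a 3p arm. One arm is usually loaded into an Argonaute protein and kept, while the other is degraded, so the arms of 1 hairpin often stand at different levels although they come from the same precursor. A mature miRNA finds its target mRNAs mainly through its seed, bases 2 to 8 from the 5′ end. Clcn5, the host gene, encodes a chloride and proton exchanger of endosomes, and its loss causes Dent disease of the kidney. Of the cluster, miR-188 has been studied in the choice of bone marrow stromal cells between bone and fat.

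The mature sequences below are those the levels turn on, with the seed in capitals, from RefSeq on GRCm38.p6 (the build mm10 that the submitters' processing notes name), written 5′ to 3′ from the minus strand of chromosome X. A sequence was matched for 7 of the 9 members, and miR-532-5p and miR-660-5p are named only.
miR-532-3p: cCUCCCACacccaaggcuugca
miR-188-5p: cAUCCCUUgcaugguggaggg
miR-188-3p: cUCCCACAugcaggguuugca
miR-500-3p: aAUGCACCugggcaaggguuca
miR-501-3p: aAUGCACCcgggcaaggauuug
miR-362-5p: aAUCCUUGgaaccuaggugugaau
miR-500-5p: aAUCCUUGcuaucugggugcuuagu
miR-501-5p: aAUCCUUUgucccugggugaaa
miR-362-3p: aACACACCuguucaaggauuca

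By seed, miR-500-3p and miR-501-3p formed a pair (AUGCACC). The 2 are 22 bases each and differ at 4 positions, counted from the 5′ end of miR-500-3p: U9C, G18A, C21U and A22G. A second seed pair was miR-362-5p with miR-500-5p (AUCCUUG), and the seed of miR-501-5p differs from it in its last base (AUCCUUU). No other mature miRNA of the RefSeq table had the seed of miR-532-3p. Its bases 2 to 9 recur as bases 1 to 8 of miR-188-3p, an arm outside the 9 members, so the shared stretch lies 1 base apart and the seeds differ. The labels do not state how reads that match more than 1 of these miRNAs were counted, so the split between miR-500-3p and miR-501-3p is uncertain to that extent.

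The hairpins of miR-532 and miR-188, which the deposited tables place in 1 family, are shown because one carries the arm that was absent at 24 h and the other is its closest neighbour, with the mature arms matched in RefSeq in capitals.
Mir532: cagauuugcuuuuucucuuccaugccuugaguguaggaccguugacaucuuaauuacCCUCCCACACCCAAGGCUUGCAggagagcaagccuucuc
Mir188: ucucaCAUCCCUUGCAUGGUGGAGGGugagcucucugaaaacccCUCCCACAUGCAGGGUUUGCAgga
Mir532 lies at chrX:7248402-7248497 and Mir188 at chrX:7247989-7248056, 345 bases further along the minus strand. Mir362 lies at chrX:7241982-7242046, Mir501 at chrX:7241243-7241351 and Mir500 at chrX:7237683-7237774. The 5 hairpins span 10815 bases, on the same strand as Clcn5 (chrX:7153810-7319358, GENCODE M21). All 5 lay in the third intron of transcript Clcn5-202 (chrX:7213011-7316658) and overlapped no exon of any of the 5 annotated Clcn5 transcripts, of which 3 span the cluster.

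**Figure D1:**
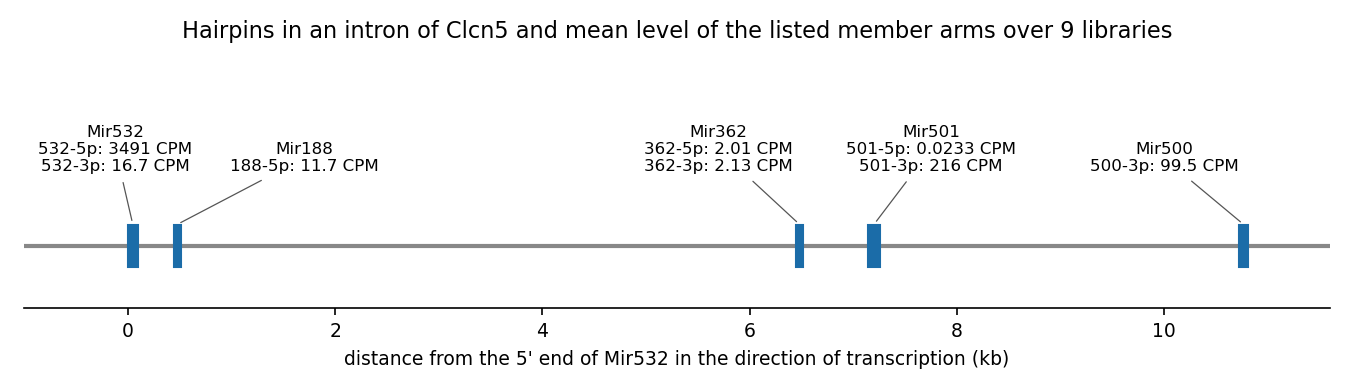
Positions of the 5 hairpins along the direction of transcription, in kb from the 5′ end of Mir532, with the mean TMM-normalised CPM of each member arm over 9 libraries. The hairpin at the left, Mir532, holds both the most abundant member, miR-532-5p at 3491 CPM, and miR-532-3p at 16.7 CPM.

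Mature miRNAs made up 2158418 to 8331451 counts per library, which was 28.0% to 44.7% of all counted small RNA reads. Levels are CPM, the mature counts scaled to a common total with TMM factors. With 3 counts as the limit of detection, a level of 0.314 to 1.56 CPM could be seen, depending on the library. Such floors, and the intervals below, cover counting error only. In a principal component analysis of the 453 miRNAs that passed the filter on low counts, untreated library 2 and 48 h library 2 stood apart on the first component (at 23.6 and 22.2, the other 7 between -20.0 and 4.40). Several of the results that rest on these 2 libraries are given with and without them. Myeloid miRNAs were described with a set of 7, and all 7 had counts. Of these, miR-146a-5p averaged 53784 CPM in untreated, 45494 CPM at 24 h and 49860 CPM at 48 h, and miR-155-5p averaged 800.2, 760.2 and 841 CPM. In the same order, miR-342-3p averaged 444, 941 and 706 CPM and miR-223-3p 107, 165 and 105 CPM. Over the 9 libraries, miR-142a-3p averaged 74.2 CPM and miR-142a-5p 88.7 CPM, and miR-511-3p did not pass the filter. The summed level of the 7, most of it miR-146a-5p, overlapped between the groups, so it says little about the scarcer ones. Of miRNAs typical of other cells, 7 of epithelium summed to 171 to 320 CPM and 5 of muscle and neurons to 70.4 to 234 CPM per library, with overlap between the groups.

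The 3p arm of miR-532 had 72, 305 and 137 counts in untreated libraries 1, 2 and 3. It had 0 counts in each of the 3 libraries of 24 h, and 6, 379 and 55 counts at 48 h. In CPM this was 13.4, 52.1 and 31.1 in untreated and 1.73, 39.7 and 12.7 at 48 h. All untreated libraries and all 48 h libraries thus lay above all 24 h libraries, which is the pattern the cluster was chosen for. The untreated and 48 h libraries overlapped, with 48 h library 1 well below the others. For a bound, counts were pooled over the libraries of each group, and 3 counts were taken for the 24 h group. On that basis the level was at least 129.7-fold lower at 24 h than in untreated, and at least 84.3-fold lower without untreated library 2. Against 48 h it was at least 100.1-fold lower at 24 h, but at least 30.8-fold without 48 h library 2. That library held most of the counts of the 48 h group. These bounds cover counting error only, not the spread between libraries.

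The depth behind these 0 counts differed between the 24 h libraries. At the untreated levels, 24 h libraries 1, 2 and 3 would have held 51.9 to 202, 80.9 to 314 and 25.9 to 100.5 counts. At the level of 48 h library 1, the lowest of the other 6, they would have held 6.71, 10.5 and 3.35 counts. The margin was thus thin in 24 h library 3, the shallowest, against that 1 library. Of 335 mature miRNAs with at least 10 counts in every untreated library, miR-532-3p was the only 1 with 0 counts at 24 h, and 0 of these 335 had 0 counts at 48 h. Over 347 hairpins with both arms listed, it was also the only lesser arm with 0 counts in 1 group and at least 100 counts in another. These are descriptions of the value that chose the cluster, and they depend on a cut at exactly 0. Near that cut, miR-219a-5p stood at 0, 0.33 and 0 CPM at 24 h, against 3.35, 35.01 and 5.45 CPM in untreated. The 24 h libraries also differed in a set of 5 red cell, liver and serum miRNAs (miR-451a, miR-144-3p, miR-486a-5p, miR-486b-5p and miR-122-5p), all listed and none at 0 over the series. Their summed level was 2135 to 5645 CPM at 24 h, 407 to 1862 CPM in untreated and 1198 to 1726 CPM at 48 h. The sum was thus higher in every 24 h library. Most of it was miR-122-5p and miR-451a, which averaged 1820 and 1953 CPM at 24 h, against 825 and 444 CPM in untreated. Of the 4 tested, 3 were higher at 24 h than in untreated and 1, miR-486a-5p, was lower (log2 fold change -0.13). The part of these miRNAs in the result was not tested.

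The 5p arm of the same hairpin did not follow the 3p arm. miR-532-5p stood at 172, 2918 and 4768 CPM in untreated libraries 1, 2 and 3, at 403, 5834 and 6806 CPM at 24 h, and at 4968, 169 and 5377 CPM at 48 h. One library of each group was low, and the other 6 were high: the 3 low values ran from 169 to 403 CPM and the 6 high ones from 2918 to 6806 CPM, a gap of 7.25-fold between the nearest values. The 3 groups overlapped throughout. At 24 h the level was 4347 ± 3451 CPM (SD, n = 3), against 2619 ± 2312 in untreated and 3505 ± 2896 at 48 h. In 24 h libraries 2 and 3, the 5p arm was therefore at its highest levels of the series while the 3p arm had 0 counts.

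**Figure D2:**
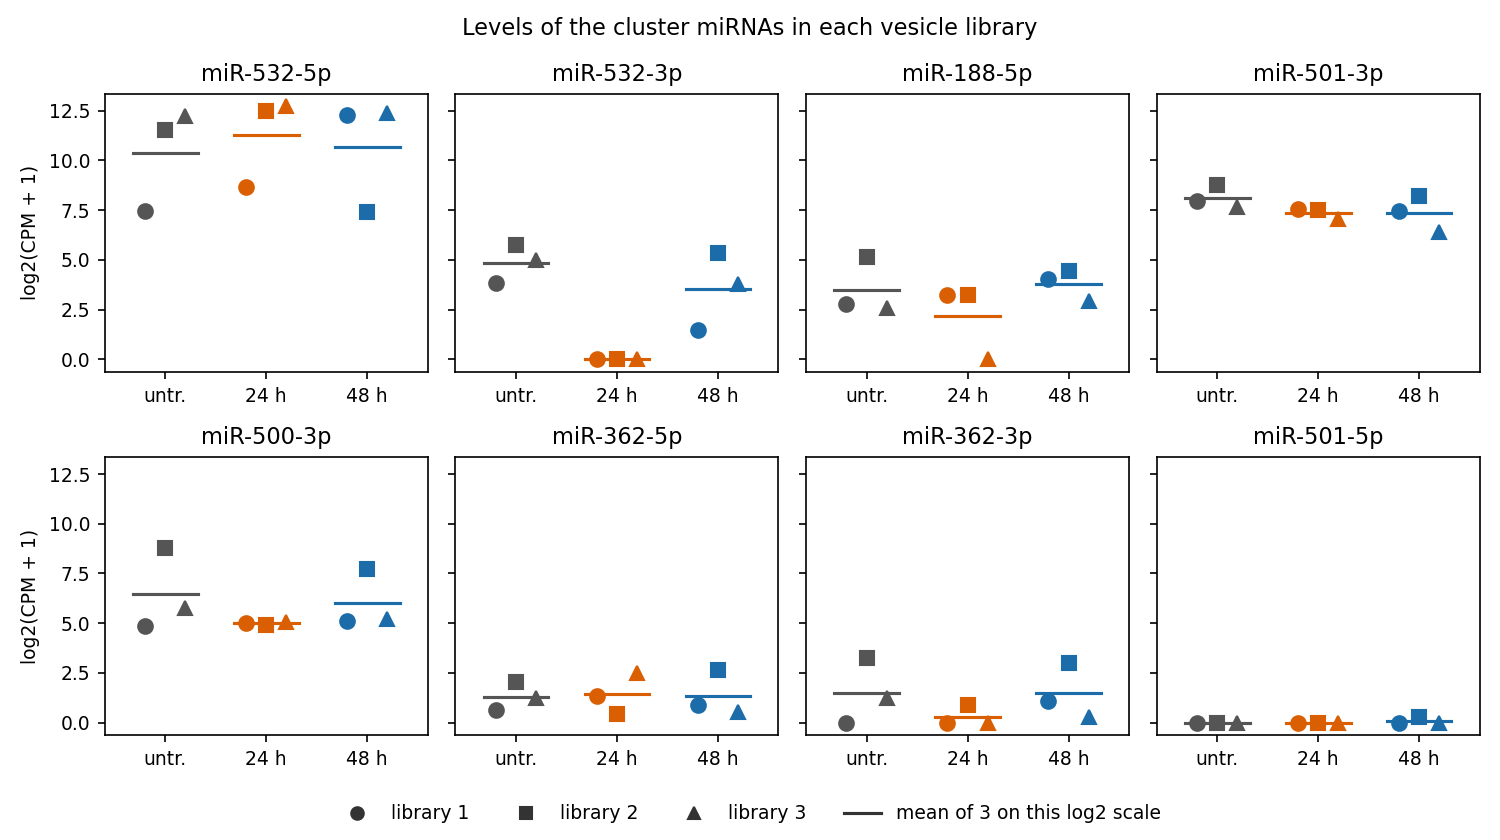
Level of each of the 8 members with counts, as log2(CPM + 1), in each of the 9 libraries, with marker shape for the library number, colour for the group and a bar for the mean of the 3 log2 values. miR-532-3p is at 0 in all 24 h libraries, miR-532-5p is low in 1 library of each group, and miR-500-3p is highest in library 2 of untreated and of 48 h.

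The share of the 3p arm among the counts of both miR-532 arms needs no scaling between libraries. It was 7.21% of 998 counts (95% Clopper-Pearson interval 5.69 to 9.0), 1.75% of 17394 (1.56 to 1.96) and 0.65% of 21132 (0.54 to 0.77) in untreated libraries 1, 2 and 3. At 48 h it was 0.035% of 17196 counts (0.013 to 0.076), 19.0% of 1995 (17.3 to 20.8) and 0.24% of 23390 (0.18 to 0.31). At 24 h, with 3 counts as the limit, the 0 counts allow shares of up to 0.193% of 1558, 0.00852% of 35200 and 0.0229% of 13129. The upper Clopper-Pearson bounds there were 0.236%, 0.0105% and 0.0281%. The share was thus highest where the 5p arm was low, in 48 h library 2 and untreated library 1, except in 24 h library 1, where both arms were low. It averaged 3.21% ± 3.52 in untreated and 6.42% ± 10.9 at 48 h (SD, n = 3), which did not differ beyond the spread between libraries (two-sided exact permutation p = 1, the smallest possible being 0.1). Without 48 h library 2 the difference was -3.07 percentage points in place of 3.22.

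Over the 6 libraries of untreated and 48 h, the log2 ratio of 3p to 5p counts of miR-532 ranged over 9.28 units. Of 91 hairpins with at least 100 counts over both arms in every library, this was the second widest range, after miR-1306 at 9.29, and the median was 3.11. The miR-532 ratio ran from -11.4 in 48 h library 1 to -2.09 in 48 h library 2, a library that stood apart. The next highest was -3.68, in untreated library 1. Hairpins were not ranked without the libraries that stood apart. Absence at 24 h stands out only beside counts in these 6 libraries, so the rank is a description and not independent of the choice. Ratios were taken after 0.5 was added to each count.

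**Figure D3:**
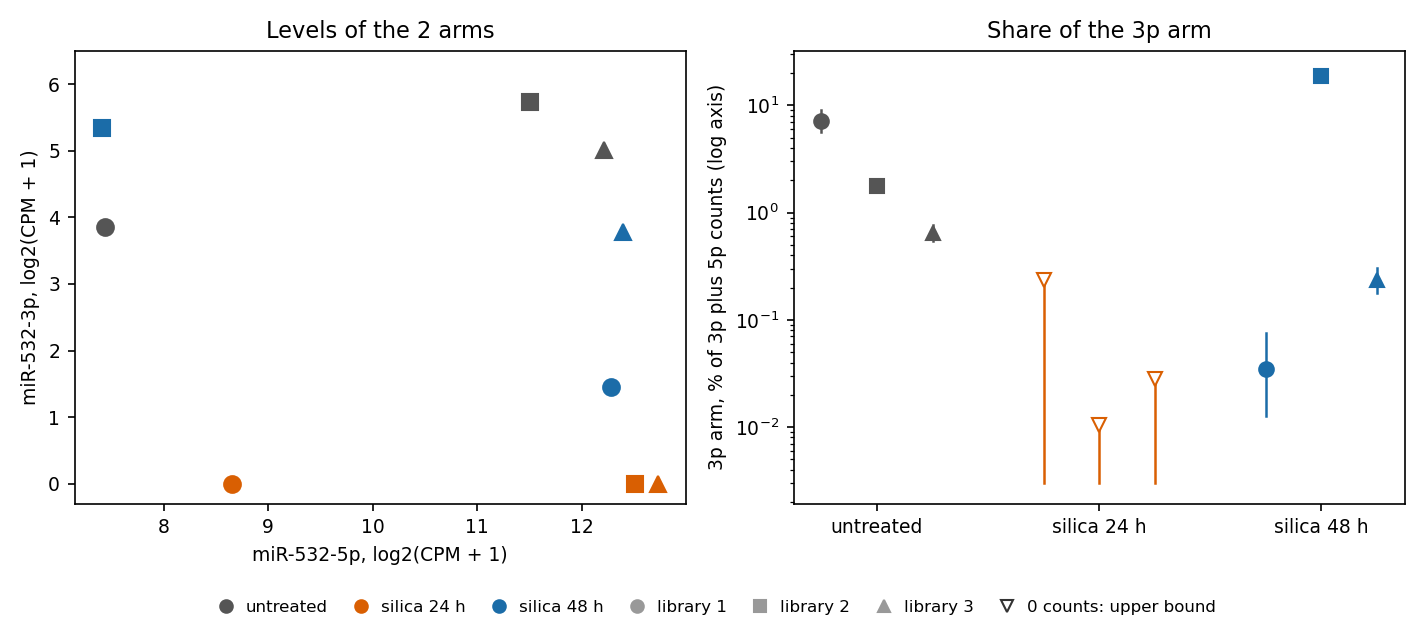
Left, miR-532-3p against miR-532-5p in each library, both as log2(CPM + 1). Right, the 3p share of both arms' counts on a log axis with 95% Clopper-Pearson intervals, where open triangles mark the upper bounds of the 24 h libraries with 0 counts of the 3p arm. The share runs from 0.035% to 19.0% in the 6 libraries with counts.

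The 2 other hairpins with both arms among the members behaved in their own ways. miR-501 was counted almost entirely as its 3p arm: miR-501-5p had 2 counts in the whole series, in 48 h library 2, and the 3p share was 99.9% to 100% in every library. The untreated and 48 h shares differed by -0.024 percentage points (two-sided exact permutation p = 1). The hairpin of miR-362 was scarce, with 3 to 117 counts over both arms per library. Its 3p share was 41.2% ± 37.6 in untreated and 49.2% ± 13.8 at 48 h (SD, n = 3; two-sided exact permutation p = 0.8), and 23.8% ± 41.2 at 24 h. The difference between 48 h and untreated was 8.07 percentage points, but -12.5 without untreated library 1, which held 3 counts of this hairpin. With the cluster sum below, 4 such values per library were tested, and all 4 p-values are 1 after Benjamini-Hochberg adjustment. No 3p share of the other hairpins can be had from the members, since miR-188, miR-500 and miR-660 each have 1 arm among them.

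miR-188-5p, from the hairpin next to Mir532, stood at 5.77, 34.5 and 5.0 CPM in untreated libraries 1, 2 and 3. At 24 h it stood at 8.53 and 8.45 CPM in libraries 1 and 2, with 0 counts in library 3. The 48 h levels were 15.3, 20.9 and 6.68 CPM. All 3 groups overlapped, and untreated library 2 was the highest of the series. Its other arm, miR-188-3p, had 23 counts in all, of which 6 were in untreated libraries, 7 in those of 24 h and 10 in those of 48 h. Unlike miR-532-3p, neither arm of miR-188 was therefore at 0 through the 24 h group. For miR-188-3p this rests on 24 h library 2, which held all 7 of these counts, with 0 in libraries 1 and 3.

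miR-501-3p, the second most abundant member, stood at 246, 438 and 201 CPM in untreated, 191, 180 and 133 CPM at 24 h, and 177, 293 and 84.1 CPM at 48 h. All 24 h libraries lay below all untreated ones, by a narrow margin (191 against 201 CPM) that was lost when mature counts were scaled by their totals alone. The 48 h libraries overlapped with both other groups. Its seed partner miR-500-3p stood at 28.1, 438 and 52.9 CPM in untreated, 31.8, 28.8 and 32.1 CPM at 24 h, and 33.2, 214 and 36.4 CPM at 48 h. The 24 h libraries were close together (30.9 ± 1.81 CPM, SD, n = 3), and the higher means of untreated (173 ± 230) and 48 h (94.6 ± 104) came from library 2 of each. All 48 h libraries lay above all 24 h ones, by 33.2 against 32.1 CPM, which did not hold with upper-quartile factors, with mature totals or with all counted reads.

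The proportion between these seed partners moved from library to library. miR-501-3p had 8.76, 1.00 and 3.81 counts for each count of miR-500-3p in untreated, 6.01, 6.25 and 4.13 at 24 h, and 5.34, 1.37 and 2.31 at 48 h. The lowest proportions were in the pair of libraries that stood apart. The other arm of Mir500, miR-500-5p, had 3, 1 and 6 counts in the 3 groups. A class of reads that the tables assign to the Rfam mir-500 precursor family, apart from mature miRNAs, held 0 to 3 counts per library.

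The arms of miR-362 had few counts outside the libraries numbered 2 of untreated and 48 h. miR-362-5p had 3, 18 and 6 counts in untreated, 6, 2 and 9 at 24 h and 3, 50 and 2 at 48 h. miR-362-3p had 0, 50 and 6 counts, 0, 5 and 0, and 4, 67 and 1 in the same order. In CPM, miR-362-5p was highest in 48 h library 2, at 5.24, and miR-362-3p in untreated library 2, at 8.54, and most other libraries held under 10 counts of either arm. miR-660-5p and its partner miR-660-3p had 0 counts in all 9 libraries. Neither these arms nor their hairpin were found in the RefSeq table used here, and whether the annotation behind the deposited counts held them was not tested, so no limit on their level is given.

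Within the cluster, the order of the mean levels in untreated was miR-532-5p, miR-501-3p, miR-500-3p, miR-532-3p, miR-188-5p, miR-362-3p and miR-362-5p. Each of the first 6 overlapped with the next over the 3 libraries, although miR-501-3p was above miR-500-3p, miR-500-3p above miR-532-3p and miR-532-3p above miR-188-5p in 3 of 3. This is an order of CPM: the printed sequences are 21 to 25 bases long, and differences in capture between sequences were not tested. At 24 h, miR-532-5p, miR-501-3p and miR-500-3p followed each other with no overlap. The order at 48 h was the same as in untreated, again with every neighbour in it overlapping. Over all 9 libraries miR-532-5p ranked 38th of all mature miRNAs by mean level, miR-501-3p 109th, miR-500-3p 145th and miR-532-3p 250th.

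The comparison of 48 h with untreated addressed whether the members differ after the longer exposure. It is the 1 contrast that does not compare the 24 h levels, although the 24 h libraries enter the same fit, filter and scaling. In edgeR (quasi-likelihood test, Benjamini-Hochberg adjustment over 453 miRNAs) 0 were called (0%), with 4 (0.883%) at an unadjusted p under 0.05, and DESeq2 called 1. With only these 2 groups in the edgeR fit, 414 miRNAs passed the filter, without miR-362-5p, and 0 were called. Of the 9 members 6 could be tested in the fit of 9 libraries. Each had an edgeR adjusted p of 0.997, with unadjusted p-values of 0.276 to 0.945. The log2 fold changes were -0.83 ± 0.99 for miR-532-3p, -0.87 ± 1.00 for miR-500-3p, -0.68 ± 0.59 for miR-501-3p and -0.08 ± 1.11 for miR-188-5p (SE). On the other side, miR-532-5p had 0.42 ± 1.25 and miR-362-5p 0.43 ± 1.36. Their median was -0.38, against 0.03 over all 453, and the groups overlapped for all 6, while over all miRNAs they did not overlap for 3.75%. Differences of about 1 log2 unit were within the error of these libraries.

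Single libraries turned several of these signs. miR-500-3p went to 1.24 without untreated library 2 and to -2.39 without 48 h library 2, and without both it was -0.22. miR-188-5p went to 1.43 without untreated library 2 and to 1.02 without both. miR-362-5p went to -1.36 without 48 h library 2, and miR-532-5p to -0.24 without untreated library 1 and to -0.23 without 48 h library 3. Without both libraries numbered 2, miR-532-5p stood at 1.06. miR-532-3p stayed below 0 without any 1 library (-2.20 to -0.24), and was -1.63 without both libraries numbered 2. miR-501-3p also stayed below 0, from -1.21 to -0.26.

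For 24 h against untreated, the contrast that chose the cluster, the fitted log2 fold changes were -2.48 ± 1.06 for miR-500-3p, -1.38 ± 1.14 for miR-188-5p and -0.81 ± 0.59 for miR-501-3p (SE). miR-532-5p had 0.73 ± 1.25 and miR-362-5p 0.30 ± 1.41. Against the same untreated libraries, the values for 48 h are those above. Without untreated library 2, miR-500-3p stood at -0.36 and miR-188-5p at 0.16. Without single libraries, miR-362-5p ran from -0.87 (without 24 h library 3) to 1.11 (without untreated library 2), and miR-532-5p from 0.10 to 1.38. Over all 453 miRNAs, edgeR called 0 (0%) in this contrast, with 46 (10.2%) at an unadjusted p under 0.05, while DESeq2 called 4 and the edgeR fit with the replicate number as a block called 3. The 24 h libraries lay wholly below the untreated ones for 2 of the 6 members tested, miR-532-3p by the choice of the cluster and miR-501-3p. The same held for 6.18% of all 453. For 48 h against 24 h, edgeR also called 0 (0%), with 44 (9.71%) at an unadjusted p under 0.05, DESeq2 called 6 and the fit with the block 3. The log2 fold changes there were 1.62 ± 1.03 for miR-500-3p, 1.30 ± 1.14 for miR-188-5p, 0.14 ± 0.59 for miR-501-3p, 0.12 ± 1.39 for miR-362-5p and -0.31 ± 1.25 for miR-532-5p (SE). All 48 h libraries lay above all 24 h ones for 2 of the 6, miR-532-3p and miR-500-3p, where 10.4% of all 453 did so. Without 48 h library 2, miR-500-3p stood at 0.16, miR-501-3p at -0.38, miR-532-5p at 0.25 and miR-362-5p at -1.62. Without 24 h library 3, miR-362-5p stood at 1.31 and miR-532-5p at 0.088. No p is given for members in these 2 contrasts.

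**Figure D4:**
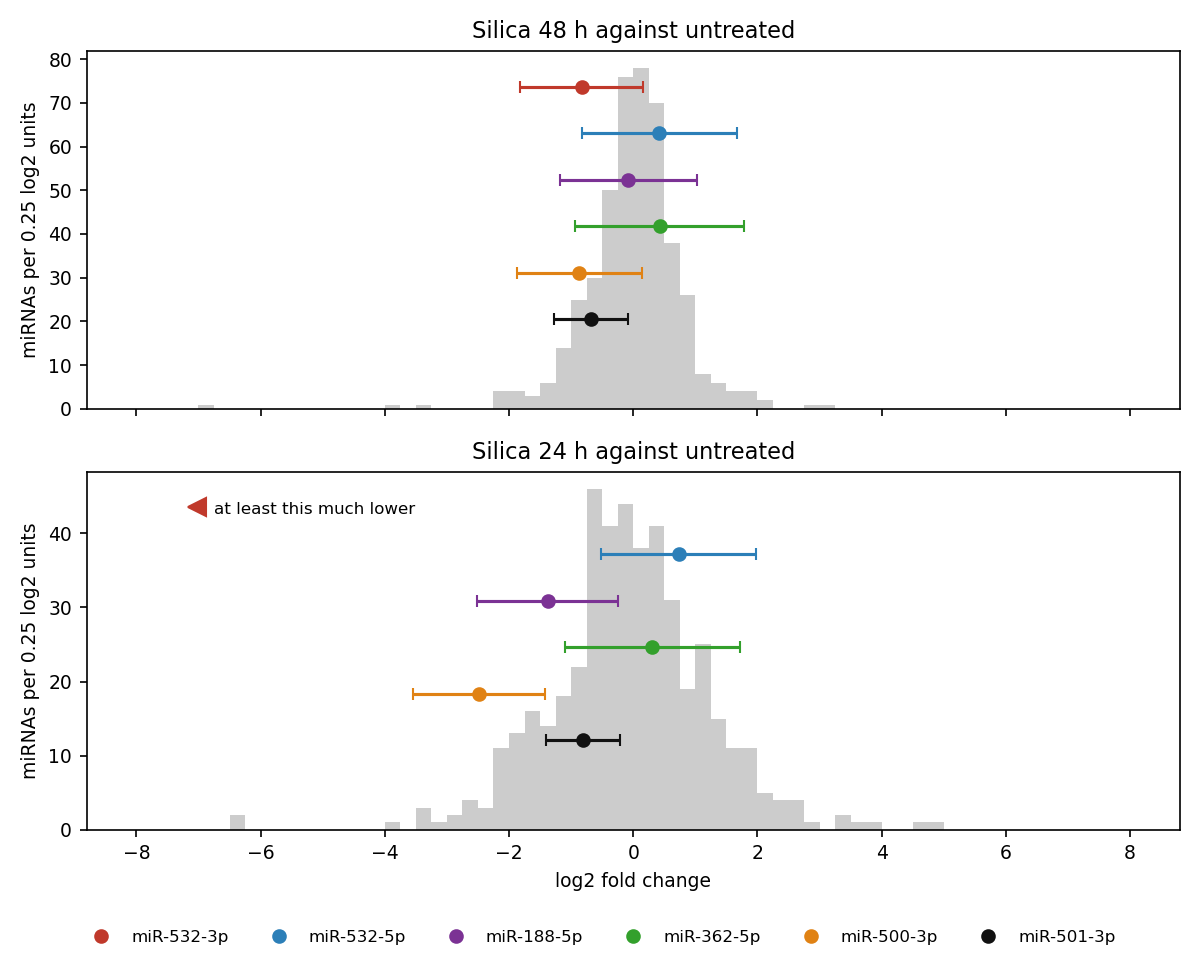
Fitted log2 fold changes of the 6 tested members (points with SE) over the histogram of the tested miRNAs, 453 at 48 h and the same without miR-532-3p at 24 h. The red arrowhead marks the bound of miR-532-3p at 24 h, at least 129.7-fold lower than untreated, and the other members lie within the bulk of the miRNAs at 48 h.

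Apart from miR-532-5p, the members shared a pattern between libraries. miR-532-3p, miR-188-5p, miR-362-5p, miR-362-3p, miR-500-3p and miR-501-3p were each highest in library 2 among the untreated and highest in library 2 among the 48 h libraries. Of the 6, 5 were among the tested miRNAs, and of all 453 tested 35.3% had the same pattern. In untreated, library 2 stood at 10.8-fold of the mean of the other 2 libraries for miR-500-3p, 6.41-fold for miR-188-5p, 2.34-fold for miR-532-3p and 1.96-fold for miR-501-3p. At 48 h it stood at 6.15-fold, 1.90-fold, 5.51-fold and 2.24-fold. Library 2 of 24 h differed between the members: it stood at 0.90-fold for miR-500-3p, 1.11-fold for miR-501-3p, 1.98-fold for miR-188-5p and 0.107-fold for miR-362-5p, and it was the only 24 h library with counts of miR-362-3p. miR-532-5p went the other way at 48 h, where library 2 was its lowest of the series, at 0.033-fold of the other 2.

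Summed over the 9 members, the cluster stood at 467, 3893 and 5061 CPM in untreated libraries 1, 2 and 3, 635, 6053 and 6975 CPM at 24 h, and 5198, 749 and 5518 CPM at 48 h. miR-532-5p made up 22.6% to 97.6% of the member counts, so the sum followed that arm. On the log2 scale, 48 h stood 0.41 above untreated, which was within the spread between libraries (11.03 ± 1.89 and 11.4 ± 1.64, SD, n = 3; two-sided exact permutation p = 0.5). Without miR-532-5p the difference was -0.72 (two-sided exact permutation p = 0.4), and the sums were 294, 974 and 293 CPM in untreated, 233, 219 and 170 CPM at 24 h and 230, 580 and 141 CPM at 48 h. Removing untreated library 1 turned the sum over all members to -0.67, and removing 48 h library 1 or 3 gave -0.043 or -0.086. Without library 2 of both untreated and 48 h, the difference of this sum was 1.80.

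The spread of miR-532-5p between libraries of 1 group was large for so abundant a miRNA. Its SD of log2(CPM + 1) within groups, pooled over the 3 groups, was 2.58, against a median of 0.57 for the 58 miRNAs with a mean of at least 1000 CPM. In this set only miR-3074-5p was more variable, at 5.10, and the next was miR-19b-3p at 1.68. The other members had 1.47 (miR-500-3p), 1.43 (miR-188-5p), 1.26 (miR-532-3p), 0.97 (miR-362-5p) and 0.64 (miR-501-3p), where the median of all 453 tested was 0.87. Among 143 miRNAs with a mean of at least 100 CPM, 1 other, miR-99a-5p, had the same 3 lowest libraries as miR-532-5p, with a gap to the next library of 1.01-fold in place of 7.23-fold, both taken after 1 CPM was added.

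**Figure D5:**
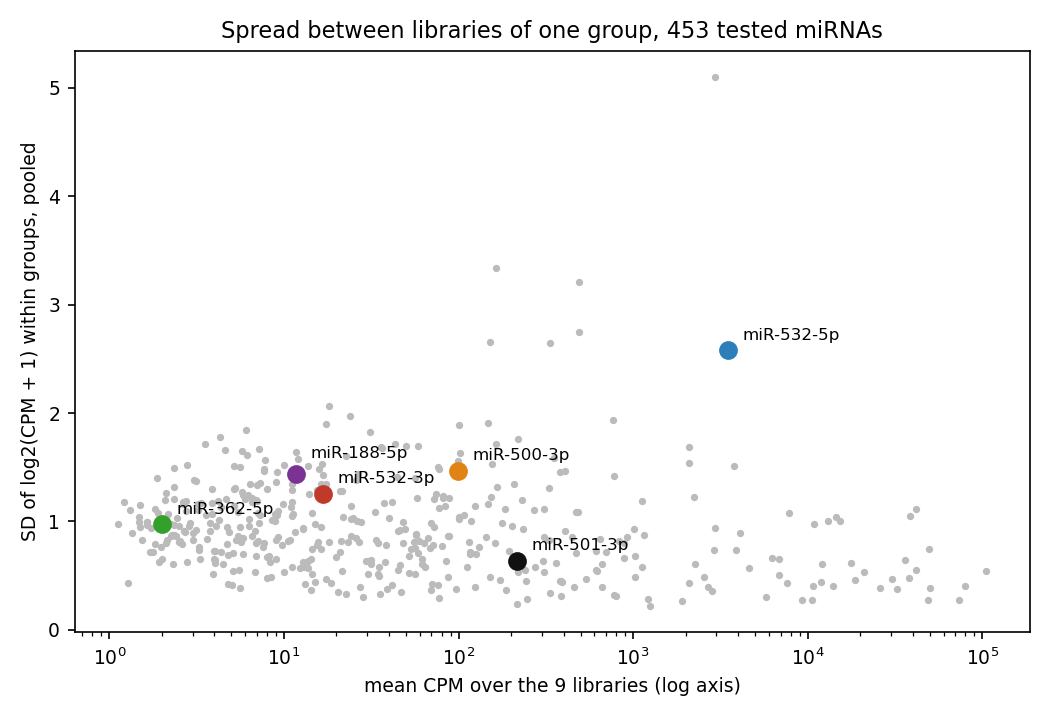
Pooled SD of log2(CPM + 1) within groups against mean CPM (log axis) for the 453 tested miRNAs in grey, with the 6 tested members in colour. miR-532-5p, at 2.58, lies above all but 1 of the miRNAs with at least 1000 CPM, and miR-501-3p, at 0.64, among the less variable ones.

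The miRNAs whose levels over the 9 libraries were most like those of miR-532-3p were found by the root-mean-square difference between log2(CPM + 1) profiles, each centred on its own mean, over 452 other tested miRNAs. These distances include the 0 counts at 24 h by which the cluster was chosen, so they are a description only. The nearest was miR-219a-5p, at 0.95 log2 units, followed by miR-19a-3p at 1.27, miR-29a-5p at 1.36, miR-674-3p at 1.39 and miR-24-1-5p at 1.41, where the median miRNA was at 2.37. miR-219a-5p stood at 3.35, 35.01 and 5.45 CPM in untreated, 0, 0.33 and 0 at 24 h, and 0.87, 7.65 and 6.45 at 48 h. None of the 5 nearest was a member, and within the cluster the nearest to miR-532-3p was miR-500-3p, at 1.64. The other arm, miR-532-5p, was the farthest of the tested members, at 3.52. For miR-532-5p itself no profile came close: the nearest 5, miR-214-3p, miR-3066-3p, miR-1981-3p, miR-5622-3p and miR-375-3p, were at 1.64 to 1.73, and its own profile measures 2.14 on this scale. The smallest distance between members was 0.80, for miR-362-5p and miR-501-3p. It is not read as likeness, since miR-362-5p stood at only 0.331 to 5.24 CPM, where the added 1 CPM flattens a profile. In 24 h library 3, miR-362-5p was at its highest of that group (4.67 CPM) and miR-501-3p at its lowest (133 CPM). The added 1 CPM also flattens miR-219a-5p and miR-24-1-5p, which averaged 6.57 and 3.64 CPM over the 9 libraries. The nearest 5 to miR-532-5p averaged only 3.23 to 9.17 CPM, so those distances carry the same limit. By contrast, miR-19a-3p, miR-29a-5p and miR-674-3p averaged 23.4 to 57.4 CPM.

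Other miRNAs of chromosome X were set beside the cluster with a list of 36, of which 33 were found in the RefSeq table, each at loci on X only. Among them, miR-222-3p averaged 40426 CPM in untreated, 62682 CPM at 24 h and 46599 CPM at 48 h. In the same order, miR-652-3p averaged 13096, 15306 and 13440 CPM, and miR-221-3p 11467, 5153 and 15890 CPM. The 23 tested include miR-222-5p and miR-421-3p, which were not found in that table. At 24 h against untreated, 7 of the 23 tested were higher and 16 lower with a median of -0.39. Of all 453, 211 were higher and 242 lower there, with a median of -0.07. At 48 h against untreated, 15 of the 23 were higher and 8 lower with a median of 0.31. Of all 453, 238 were higher and 215 lower there, with a median of 0.03. By edgeR, 0 of the 23 passed the adjusted threshold in any of the 3 comparisons, where the called share of all 453 was 0% in each.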

How the data were processed

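The authors deposited 1 table of counts per library. Per the labels' protocols, ultracentrifugation gave the exosomes, Trizol their RNA, and the BGISEQ-500 protocol the libraries. Trim Galore, Bowtie, HTSeq and mm10 stand in the submitters' processing notes, with no versions. Per the file headers each table also gives TPM, which is the deposited count scaled to RPM, without a length term (matched within 0.005), and it was not tested. In each table the counts sum to the header total. Members were the rows of class mature with the listed names, and an absent row counted as 0.

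Counts were tested in edgeR 4.0.16 (filterByExpr with a minimum count of 10, TMM, quasi-likelihood test, 9 libraries in 1 fit). Benjamini-Hochberg adjustment was over 453 miRNAs, with a threshold of 0.05. The fit was also run on simulated counts, and that outcome is not used here. The SE is the fitted log2 fold change over the square root of F. Values per library were compared by two-sided exact permutation. Alternatives were other scalings, no filter, DESeq2 1.42.0, 2 groups only, a replicate block and leaving out libraries. The members, lists and tests were chosen with earlier results of these data known. Named beyond the members were their other arms, the 5 nearest profiles, arms or miRNAs at 0 in a group, and the most abundant of each list, while miR-1306, miR-3074-5p, miR-19b-3p and miR-99a-5p were chosen after their values were seen.

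Libraries with the same number deviated together from their group means (r across miRNAs, against untreated, was 0.173, 0.645 and 0.347 at 48 h but lower, 0.135, 0.469 and 0.163, at 24 h), so the numbers may pair libraries, although no label says so and 1 pair of differing numbers reached 0.393. For 48 h with 24 h, r was -0.059, 0.296 and 0.312. The design text speaks of independent repetitions without saying what was repeated, so p-values measure the spread between these libraries, which may be technical. No 2 libraries of a group held the same counts within sampling noise (chi-square divided by its degrees of freedom, 261 to 3147).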

Additional observations from a re-analysis of the deposited data

How the results depend on the processing

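For 48 h against untreated, 0 of the 100 values of the 6 tested members under other settings passed the threshold (adjusted p 0.768 to 1 in edgeR or DESeq2), and 9 had the other sign. The count of 0 called miRNAs at 48 h became 1 without a filter on low counts and 1 in DESeq2, and was 0 without any single library. For 24 h against untreated it became 1 with upper-quartile factors, 7 without a filter, 4 in DESeq2, 1 with only the 2 groups in the fit, 3 with the replicate number as a block, and 0 to 1 without single libraries. For 48 h against 24 h it became 16 without a filter, 6 in DESeq2, 3 with the replicate block and 0 to 1 without single libraries. The block changed no other call.

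The log2 fold change of miR-188-5p turned to 0.12 with upper-quartile factors, 0.23 with the replicate block and 1.02 without both libraries numbered 2 (chosen after seeing the data). Without single libraries it ran from -0.56 to 1.43, that of miR-362-5p from -1.36 to 1.23, of miR-500-3p from -2.39 to 1.24 and of miR-532-5p from -0.24 to 1.04. The summed level went from 0.41 to -0.72 without miR-532-5p, and from -0.67 to 1.35 without single libraries. With libraries paired by number the summed level stayed at 0.41 (two-sided exact sign-flip test on the 3 paired differences, p = 0.75). The miR-532 3p share difference of 3.22 points became -1.81 as a log2 ratio of the arms and -3.80 points without both libraries numbered 2, and -3.07 to 6.41 without single libraries. That of miR-362 ran from -12.5 to 24.2, and that of miR-501 from -0.036 to 0. The bound on miR-532-3p at 24 h against untreated was 116-fold to 139-fold over the scalings. Apart from the stated constructions, the cause was not tested. With 3 libraries a group, the median SE over the 453 miRNAs was 0.82 log2 units at 48 h against untreated.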
